A study of Homo sapiens with 83 samples.

Results

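SHEP is a neuroblastoma cell line, and the comparison described here is that of SHEP cells with the N-MYC-ER fusion protein switched on against the same cells with it switched off. N-MYC-ER joins N-MYC to a hormone-binding domain of the estrogen receptor, so that the fusion protein acts as a transcription factor once 4-hydroxytamoxifen (4OHT) is bound. The 56 SHEP libraries of the 83 in the series were taken, 28 MYC-OFF and 28 MYC-ON, and each MYC-ON library was set against the MYC-OFF library of the same time and replicate number, which gave 28 pairs. The pairs match libraries for counts of pairs and sign-flip tests only. The main fit over genes holds time but no pair or replicate term. The fits of time and series terms also hold the replicate series. All cells in both groups carried and overexpressed the fusion gene and received dexamethasone to set their clocks. MYC-OFF cells received ethanol as vehicle, and MYC-ON cells received 4OHT, in each case from 24 h before dexamethasone. Cells were collected every 4 h from CT24 to CT76, CT being hours after dexamethasone, in 2 replicate series of 14 times each, and polyadenylated RNA was sequenced in paired ends. Since 4OHT was given only to MYC-ON cells, an effect of the drug and one of active N-MYC cannot be told apart. The times of a series follow each other in 1 experiment, so the 28 libraries of a group stand for 2 experiments, and p-values measure the spread between libraries.

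MYC family proteins pair with MAX and bind E-boxes, of which CACGTG is the canonical form, at many active promoters. They are known for raising genes of ribosome production, nucleotide synthesis, protein folding and mitochondria, and for lowering genes of matrix, adhesion and antigen display. In neuroblastoma, amplified MYCN marks aggressive disease, and SHEP belongs to the lines with a mesenchymal rather than an adrenergic character.

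Values are transcripts per 1000000 (TPM), a length-corrected share of each library, so a fall can be of RNA per cell or of the share alone. Where a pair of medians is given as one to the other, the first is MYC-OFF and the second MYC-ON. In bulk RNA, fewer cells of a type and less RNA per cell cannot be told apart. MYCN RNA, to which reads of the fusion gene are assigned and which SHEP cells are described as not making from their own gene, ranged from 406 to 688 TPM in MYC-OFF (median 559.9) and from 255 to 515 TPM in MYC-ON (median 353). It was lower in MYC-ON in 28 of 28 pairs, by 0.57 on the log2 scale, although the groups overlapped. ESR1, the gene of the estrogen receptor, whose hormone-binding end is in the fusion, had medians of 984 TPM in MYC-OFF and 658 TPM in MYC-ON, and the files do not separate the fusion from the cell's own gene. MYC itself, which lies apart from the fusion, ranged from 7.42 to 17.7 TPM in MYC-OFF (median 11.3) and from 0.801 to 6.45 TPM in MYC-ON (median 2.05). The groups did not overlap, and the fitted log2 difference was -1.87 (SE 0.10, adjusted p = 9.33e-21, limma).

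Of 23 adrenergic genes, 16 had a mean under 1 TPM and 4 were listed at 0 in every library. The 23 mesenchymal genes summed to between 15785 and 18278 TPM in MYC-OFF and between 8255 and 12269 TPM in MYC-ON, with 3 of them under 1 TPM. Abundant members weigh most in this sum, and they did not all move. LGALS1 had medians of 4474 TPM in MYC-OFF and 1303 TPM in MYC-ON, and COL1A1 of 2679 and 789 TPM. VIM had medians of 3393 and 3425 TPM, and CD44 of 248 and 255 TPM. Of 12 blood cell markers 11 were under 1 TPM, and the exception was LCP1, an actin-bundling protein also made by tumour cells.

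The first principal component held 47.4% of the variance, and its score lay between 29.9 and 37.4 in MYC-OFF and between -50.8 and -19.8 in MYC-ON. The second component held 8.6% and followed time in MYC-ON, where it ran from -29.7 to 39.3, against -6.08 to 10.3 in MYC-OFF. The number of genes above 0 TPM was 22230 ± 312 (SD, n = 28) in MYC-OFF and 22981 ± 920 (SD, n = 28) in MYC-ON, higher in 26 of 28 pairs. A sign-flip permutation test gave p = 2e-05, the smallest it can give, and an adjusted p of 4e-05 over 4 library values. The mean difference was 326 genes in series 1 and 1177 in series 2. The median log2(TPM + 1) of genes tested differed by a mean of -0.066 and was higher in MYC-ON in 3 of 28 pairs. It passed the same test (permutation p = 2e-05, adjusted p = 4e-05). The share of TPM in the 100 most abundant genes did not pass (permutation p = 0.131). The share of TPM in mitochondrially encoded mRNA was 8.08% ± 1.86 (SD, n = 28) in MYC-OFF and 8.50% ± 2.86 (SD, n = 28) in MYC-ON, and this difference did not pass the test (permutation p = 0.251).

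In 6 MYC-ON libraries, those of replicate 2 from CT52 to CT72, log2 values fell with the GC content of transcripts, with slopes between -0.0185 and -0.00296 per percent GC. In the other 50 libraries the slopes were all above 0, between 0.00160 and 0.0208. These 6 libraries held between 22552 and 25484 genes above 0 TPM. Counts without these pairs stand beside the time and series results below.

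**Figure D1:**
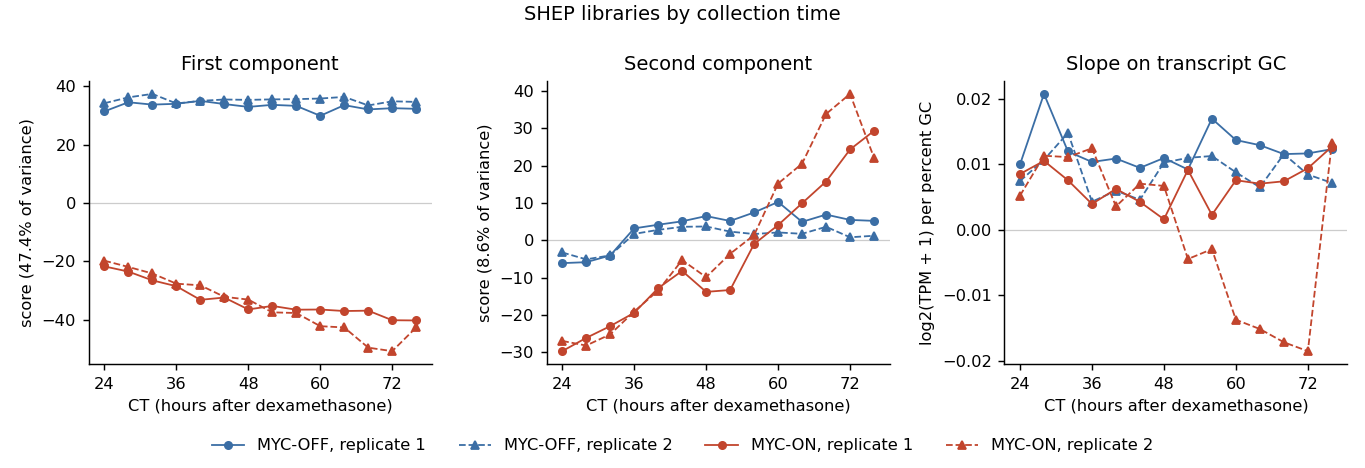
Scores of the first and second principal components and the slope of log2(TPM + 1) on transcript GC content, each against CT in hours, for 28 MYC-OFF (blue) and 28 MYC-ON (red) libraries, with circles for replicate 1 and triangles for replicate 2. The first component keeps the groups apart at every CT, the second climbs with CT in MYC-ON, and 6 MYC-ON libraries of replicate 2 have slopes below 0.

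Of 14362 genes with a mean of at least 1 TPM, 4734 were higher in MYC-ON and 5580 were lower (limma, Benjamini-Hochberg adjusted p up to 0.05, size from 0.15 on the log2 scale). These are 33% and 38.9% of genes tested, so a list of genes has to be read against them. At a stricter size of 1.5-fold (0.66 on the log2 scale), 1349 genes were higher and 1632 lower, or 9.39% and 11.4%. After median-of-ratios rescaling of the libraries these were 1486 and 1458, so the order of the counts depends on the scaling. Large changes were few, with 497 genes higher and 616 lower by at least 1 on the log2 scale, 34 and 41 by at least 2, and 4 and 5 by at least 3. The median difference over all genes was -0.04, and the median size was 0.32. The groups did not overlap for 1791 genes (12.5%), of which 877 were higher and 914 lower.

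The genes called higher at 1.5-fold took 5.56% of all TPM in MYC-OFF (range 5.32 to 6.11%) and 11.3% in MYC-ON (range 10.3 to 11.9%). Those called lower took 12.1% in MYC-OFF (range 11.5 to 13.1%) and 5.64% in MYC-ON (range 4.34 to 6.70%). Since these genes were called on the same libraries, the shares describe how much of the mRNA moved and are no test.

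The effect was alike in the replicate series, as read outside the libraries used to choose genes. Genes were chosen at 1.5-fold in series 1 alone and read in series 2. Of 475 genes between 1 and 2 on the log2 scale in series 1, 99.8% had the same sign in series 2, with medians of 1.22 and 1.20. Of 527 genes lower by 1 to 2, 100% had the same sign, with medians of -1.23 and -1.26. Among 839 genes higher and 976 lower by 0.66 to 1, 4 and 6 had the other sign. Read the other way, from series 2 into series 1, the 510 genes higher by 1 to 2 had medians of 1.22 and 1.15, and the 652 lower ones of -1.22 and -1.14.

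**Figure D2:**
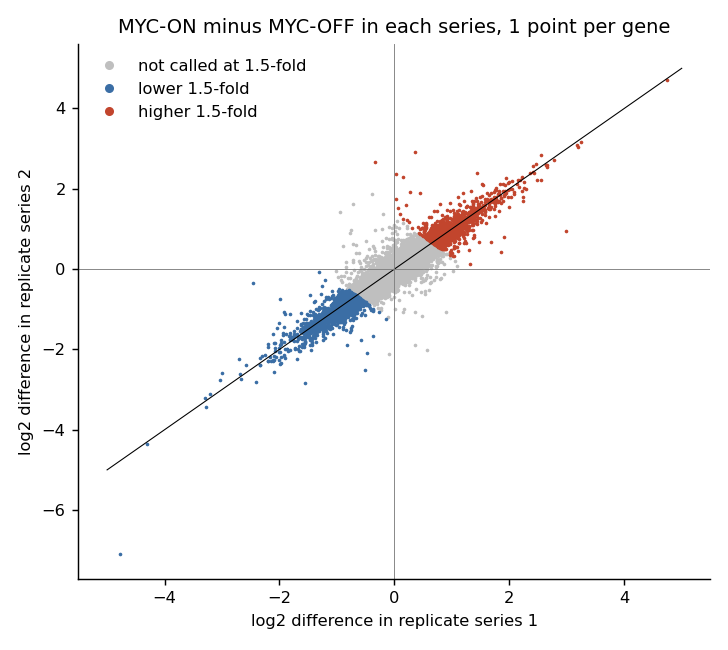
The log2 difference of MYC-ON minus MYC-OFF in replicate series 1 (x axis) and series 2 (y axis), 1 point per gene for 14362 genes, with genes called 1.5-fold over both series in red (higher, 1349) and blue (lower, 1632). Points follow the line of equal effect, and the point at the far lower left is GAGE2E, which has near-identical copies.

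The largest rises were in genes that SHEP cells hardly expressed with N-MYC off. SH2B2 (SH2B adaptor protein 2, ENSG00000160999, chr7:102285091-102321711, GRCh38), which relays insulin and cytokine receptor signals, ranged from 0.575 to 3.32 TPM in MYC-OFF (median 1.79) and from 13.6 to 39.2 TPM in MYC-ON (median 24.7). RGS16, which shortens signals of G protein-coupled receptors, ranged from 0.312 to 3.70 TPM in MYC-OFF (median 0.947) and from 12.9 to 26.9 TPM in MYC-ON (median 17.4). SLCO4A1, an organic anion and thyroid hormone transporter, ranged from 0.663 to 2.47 TPM in MYC-OFF (median 1.13) and from 12.4 to 34 TPM in MYC-ON (median 17). For all 3, every MYC-ON library lay above every MYC-OFF library, and the log2 differences were 3.21 (SE 0.086), 3.13 (SE 0.068) and 3.11 (SE 0.07). The largest adjusted p of the 3 was 8.36e-33 (limma).

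Receptors, transporters and a clock repressor followed. IGSF9, an immunoglobulin superfamily adhesion protein of neurons, went from a median of 0.514 TPM to 9.13 TPM. BMP6, a secreted ligand of the TGF-beta superfamily, went from 0.366 to 7.45 TPM. LRP3, a receptor of the LDL receptor family, went from 0.523 to 8.89 TPM. None of these groups overlapped, and their log2 differences were 2.75, 2.62 and 2.61. NR1D1 (REV-ERBα), the repressor of the clock activator ARNTL, ranged from 3.15 to 6.96 TPM in MYC-OFF (median 5.03) and from 30.1 to 46.5 TPM in MYC-ON (median 34.6), again without overlap (log2 difference 2.63, SE 0.045). NR1D1 overlaps THRA on the opposite strand, and THRA ranged from 11 to 18.8 TPM in MYC-OFF (median 14.2) and from 5.04 to 14.4 TPM in MYC-ON (median 10.5), so THRA moved the other way. SLC19A3, a thiamine transporter, had medians of 0.727 to 9.20 TPM, and SLC25A10, the mitochondrial dicarboxylate carrier, 25 to 140.0 TPM. PPM1J, a protein phosphatase, had medians of 1.55 to 13.2 TPM, CENPP, a centromere protein, 4.11 to 28.6 TPM, and AC008012.1, a protein-coding entry with no gene name, 0.980 to 12.2 TPM. Each of these 5 was higher in 28 of 28 pairs, by 2.41 to 2.69 on the log2 scale.

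CACGTG E-boxes near starts were more frequent among genes that rose than among those that fell. RefSeq promoters (GRCh38.p14, 250 bases before to 50 bases after the start, the first listed start of each gene) were matched by symbol for 9796 of 12138 protein-coding genes tested (80.7%). CACGTG, a palindrome, was present in 118 of 893 promoters of genes higher 1.5-fold (13.2%), 820 of 7773 of genes called in neither direction at that size (10.5%) and 70 of 1130 of genes lower 1.5-fold (6.19%). Over all 27305 promoters in the table the share was 7.43%. The related CACGCG, searched on both strands and counted apart from CACGTG, was in 27%, 18.6% and 11.7% of the same 3 groups and in 11.4% of all promoters. The median GC content of the 3 groups was 65.7%, 65% and 66%.

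Motifs of other factors moved less or the other way. The AP-1 motif TGANTCA was in 4.03% of higher, 4.12% of neither and 6.73% of lower promoters, against 7.76% of all. The TEAD motif GGAATG was in 10.3%, 10.5% and 12.8%, and the NF-Y motif CCAAT in 36.6%, 37.4% and 34.2%. GACGTC, a core of ATF and CREB sites with the same base content as CACGTG, was in 8.73%, 8.29% and 5.75%. All were searched on both strands, a match is a run of letters and not a bound site, and these shares were not tested. Within each of 4 bins of promoter GC content, genes with CACGTG were called higher in 11.1 to 12.3% and lower in 5.05 to 8.33% of cases, against 7.90 to 9.41% and 10 to 15.3% without it. With GACGTC these shares were 4.96 to 11.6% higher and 4.72 to 11.6% lower. Without GACGTC they were 8.39 to 9.55% and 10.1 to 14.7%. In each bin, genes with GACGTC were also called lower less often than those without it.

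Of the 12 largest rises, 9 had a promoter sequence and 3 of these held CACGTG, in capitals here with its first base counted from the start, upstream as negative. That of IGSF9 (chr1:159945564-159945863, minus strand) is at -177, that of LRP3 (chr19:33194080-33194379, plus strand) at -64 and that of CENPP (chr9:92325218-92325517, plus strand, the first of 3 listed starts) at -114.
IGSF9: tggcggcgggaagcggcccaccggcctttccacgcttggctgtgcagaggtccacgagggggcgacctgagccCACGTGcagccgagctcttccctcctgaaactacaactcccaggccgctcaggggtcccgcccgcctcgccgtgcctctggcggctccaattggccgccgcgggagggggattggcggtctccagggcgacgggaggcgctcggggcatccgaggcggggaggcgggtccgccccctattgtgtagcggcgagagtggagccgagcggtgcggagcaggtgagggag
LRP3: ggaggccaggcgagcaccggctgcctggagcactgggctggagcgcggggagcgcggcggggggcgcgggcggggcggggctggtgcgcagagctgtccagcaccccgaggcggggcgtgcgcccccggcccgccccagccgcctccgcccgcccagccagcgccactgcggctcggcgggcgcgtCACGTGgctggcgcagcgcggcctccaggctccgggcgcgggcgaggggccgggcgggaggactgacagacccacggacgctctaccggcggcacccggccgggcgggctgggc
CENPP: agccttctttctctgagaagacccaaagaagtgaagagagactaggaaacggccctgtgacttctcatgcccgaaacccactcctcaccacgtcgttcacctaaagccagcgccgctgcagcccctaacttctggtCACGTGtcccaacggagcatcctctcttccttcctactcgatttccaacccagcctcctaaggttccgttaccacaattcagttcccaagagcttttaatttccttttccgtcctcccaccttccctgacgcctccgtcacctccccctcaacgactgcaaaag
Of the 12 largest falls, 8 had a promoter sequence and 0 of them held CACGTG. COL5A1 (chr9:134641553-134641852, plus strand) and STRA6 (chr15:74212210-74212509, minus strand) are shown beside the rises as leading falls, and neither holds the E-box, AP-1 or TEAD letters above in this window.
COL5A1: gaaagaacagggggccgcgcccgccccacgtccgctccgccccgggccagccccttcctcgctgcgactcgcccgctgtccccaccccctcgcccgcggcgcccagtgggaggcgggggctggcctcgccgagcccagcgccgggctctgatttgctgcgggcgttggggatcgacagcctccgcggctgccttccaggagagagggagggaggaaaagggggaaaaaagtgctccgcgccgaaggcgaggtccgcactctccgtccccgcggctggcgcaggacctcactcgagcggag
STRA6: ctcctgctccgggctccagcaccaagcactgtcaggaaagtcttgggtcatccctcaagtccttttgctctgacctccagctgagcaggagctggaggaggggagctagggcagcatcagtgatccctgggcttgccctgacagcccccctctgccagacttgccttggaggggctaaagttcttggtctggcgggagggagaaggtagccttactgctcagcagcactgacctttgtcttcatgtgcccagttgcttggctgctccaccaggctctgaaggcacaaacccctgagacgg

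Of 34 subunits and factors of RNA polymerases I and III, which make ribosomal and transfer RNA, 25 were higher and 3 lower, with a median log2 difference of 0.40. POLR3G, the polymerase III subunit of undifferentiated cells, ranged from 11.9 to 20.6 TPM in MYC-OFF (median 15.1) and from 62.1 to 106 TPM in MYC-ON (median 84.7), and POLR1B, the second largest subunit of polymerase I, from 21.8 to 44.1 TPM in MYC-OFF (median 34.6) and from 57.2 to 97.5 TPM in MYC-ON (median 77.5). Neither pair of groups overlapped, and POLR3G differed by 2.40 (SE 0.053). Among 28 genes that modify ribosomal and transfer RNA, 24 were higher and 0 lower (median 0.56). FBL, the methyltransferase of box C/D ribonucleoproteins, ranged from 155 to 213 TPM in MYC-OFF (median 187) and from 474 to 694 TPM in MYC-ON (median 590.5), and NOP56, its partner in the same particle, had medians of 131 to 385 TPM. Neither overlapped between groups.

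Gene families were formed from shared symbols, and 152 had at least 10 tested protein-coding members. The 2 highest medians were those of the mitochondrial ribosome, MRPS (26 of 29 higher and 1 lower, median 0.55) and MRPL (37 of 49 higher and 3 lower, median 0.55). MRPS17 had medians of 25.3 to 77.9 TPM and MRPL4 of 107 to 291 TPM, in each case with no overlap. Next came the RNA exosome, EXOSC (9 of 10 higher and 0 lower, median 0.49), and the small subunit processome, UTP (7 of 10 higher and 1 lower, median 0.48). UTP4 went from 59.2 to 119 TPM and EXOSC7 from 53 to 108 TPM. TEX (7 of 10 higher and 1 lower), PRPF of the spliceosome (10 of 13 higher and 0 lower), POLR (19 of 29 higher and 2 lower) and COQ of ubiquinone synthesis (7 of 11 higher and 1 lower) completed the highest 8. Genes of cytosolic ribosomal proteins lay lower, with 12 of 43 higher and 9 lower for RPS (median 0.04) and 20 of 50 higher and 8 lower for RPL (median 0.11), against 33% higher over all genes.

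**Figure D3:**
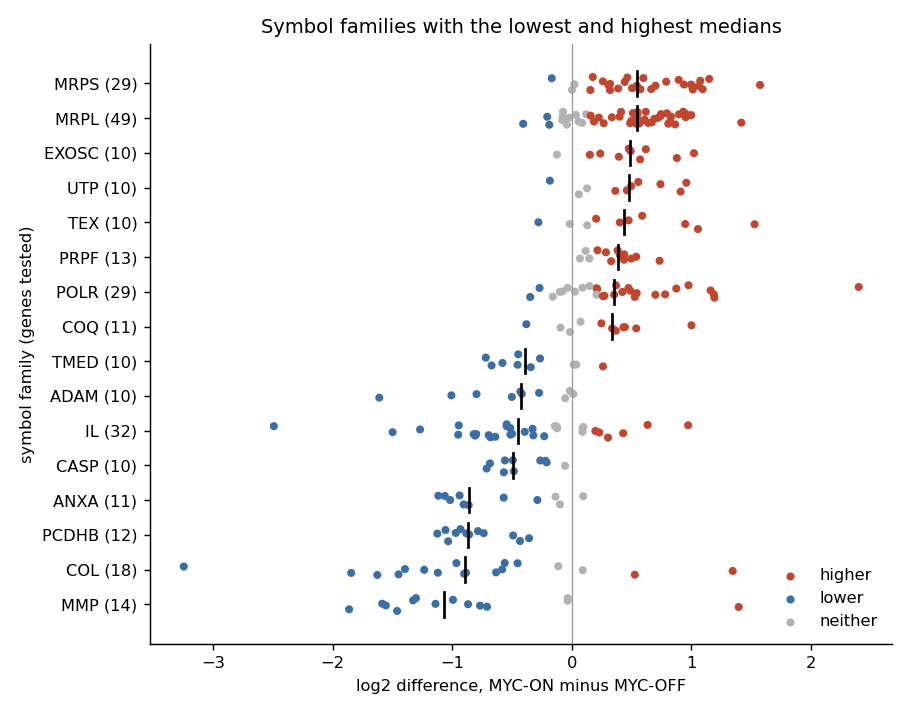
Log2 difference of MYC-ON minus MYC-OFF for each tested protein-coding gene of the 8 symbol families with the lowest and the 8 with the highest medians, coloured by call (red higher, blue lower, grey neither), with a black bar at the median. Medians run from -1.07 for MMP to 0.55 for MRPS, and single members lie on the other side of 0 in most families.

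Of 23 genes of purine and pyrimidine synthesis, 17 were higher and 2 lower (median 0.51). PAICS, a bifunctional enzyme of purine synthesis, ranged from 139 to 179 TPM in MYC-OFF (median 165) and from 315 to 411 TPM in MYC-ON (median 385) without overlap. PPAT, which commits the pathway, had medians of 23.3 to 50.9 TPM. Of 24 chaperonin and heat shock genes, 21 were higher and 2 lower (median 0.54). TRAP1, the mitochondrial HSP90, went from 141 to 459 TPM, GRPEL1, which serves the mitochondrial HSP70, from 47.1 to 122 TPM, and HSPD1, the mitochondrial chaperonin, from 506 to 1095 TPM. DNAJA1, a cytosolic partner of HSP70, fell (159.6 to 128 TPM).

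ODC1, the rate-limiting enzyme of polyamine synthesis and a classical MYC target, ranged from 99 to 157 TPM in MYC-OFF (median 116) and from 315 to 701 TPM in MYC-ON (median 519) without overlap, a log2 difference of 2.14 (SE 0.04, adjusted p = 8.9e-39, limma). Of its 12 tested pathway genes 6 were higher and 3 lower. Amino acid transport had 11 of 14 genes higher and 2 lower (median 0.53), with SLC25A22, the mitochondrial glutamate carrier, at medians of 42.3 to 165 TPM and SLC7A5, which imports large neutral amino acids, at 75.7 to 255 TPM. In serine and one-carbon metabolism 6 of 14 were higher and 3 lower. MTHFD1L, the mitochondrial formate-producing enzyme, went from 58 to 192 TPM, and PSAT1 of serine synthesis from 51.3 to 147 TPM. Glycolysis and lactate had 9 of 22 higher and 8 lower (median 0.05), though HK2, the hexokinase bound to mitochondria, ranged from 8.30 to 17.2 TPM in MYC-OFF (median 11.1) and from 30.9 to 52 TPM in MYC-ON (median 38.7).

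Splicing, nuclear transport, translation and mitochondrial import had few falls. The spliceosome list had 23 of 30 higher and 1 lower (median 0.40), nuclear transport 21 of 29 higher and 2 lower (median 0.32), translation factors 23 of 29 higher and 2 lower (median 0.42) and mitochondrial import 20 of 26 higher and 1 lower (median 0.34). RAN, the GTPase that powers nuclear transport, went from 664 to 1542 TPM, and SNRPD1, a core spliceosomal protein, from 64.2 to 152 TPM. EIF3J, a subunit of initiation factor 3, had medians of 65.9 to 165 TPM and TIMM44, which anchors the import motor, 43.3 to 103 TPM. The proteasome had 18 of 33 higher and 1 lower, but with a median of 0.20 and 1 gene over 1.5-fold, PSMG1, an assembly chaperone, which ranged from 50.4 to 74.7 TPM in MYC-OFF (median 63.6) and from 214 to 394 TPM in MYC-ON (median 265). Of 22 snoRNA host genes 15 were higher and 3 lower, among them SNHG14 (19.9 to 52.3 TPM) and SNHG15 (26.6 to 58.5 TPM).

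The falls were led by ACKR3 (ENSG00000144476, chr2:236567787-236582354, GRCh38), an atypical chemokine receptor that clears CXCL12. It ranged from 54.9 to 135 TPM in MYC-OFF (median 87.1) and from 0.552 to 16.8 TPM in MYC-ON (median 3.67). Every MYC-ON library lay below every MYC-OFF library, and the log2 difference was -4.33 (SE 0.13, adjusted p = 4.42e-31, limma). PLAT and PLAU, the tissue and urokinase plasminogen activators, were lower too. PLAT ranged from 30.1 to 116 TPM in MYC-OFF (median 82.6) and from 4.44 to 11.2 TPM in MYC-ON (median 6.56). PLAU ranged from 223 to 587 TPM in MYC-OFF (median 365) and from 45.4 to 113 TPM in MYC-ON (median 66.7), and groups overlapped for neither gene.

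Matrix genes followed. COL5A1 (collagen V, ENSG00000130635, chr9:134641803-134844843) ranged from 65.1 to 162 TPM in MYC-OFF (median 120.0) and from 5.05 to 26.1 TPM in MYC-ON (median 11.9). LOX, which crosslinks collagen and elastin, ranged from 52.4 to 125 TPM in MYC-OFF (median 73.5) and from 5.40 to 18.7 TPM in MYC-ON (median 9.97). ECM1, an extracellular matrix protein, went from a median of 27.7 TPM to 4.26 TPM. None of the 3 overlapped, and their log2 differences were -3.24, -2.70 and -2.36. ITGB3, the integrin β3 subunit, had medians of 27.4 to 3.02 TPM. STRA6, the receptor that takes up retinol, had medians of 60.3 to 5.24 TPM, AFAP1L2, an adaptor of SRC, 9.29 to 0.360 TPM, and LBH, a transcription cofactor, 10.4 to 0.512 TPM. All of these were lower in 28 of 28 pairs. KRT81, a hair keratin, ranged from 304 to 527 TPM in MYC-OFF (median 378) and from 36.1 to 181 TPM in MYC-ON (median 57.9). It has a close copy, KRT86, and the 2 summed to medians of 383 and 58.7 TPM. IL1B, an inflammatory cytokine, ranged from 13.7 to 92 TPM in MYC-OFF (median 33.6) and from 2.40 to 22.3 TPM in MYC-ON (median 5.05), the only one of the 12 largest falls whose groups overlapped.

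Among symbol families the lowest medians were those of MMP, COL and PCDHB, and the rest of the lowest 8 were of mixed kinds. MMP, the matrix metalloproteinases, had 1 of 14 higher and 11 lower (median -1.07), COL, the collagens, 2 of 18 higher and 14 lower (-0.89), PCDHB, the clustered β protocadherins, 0 of 12 higher and 12 lower (-0.87), and ANXA, the annexins, 0 of 11 higher and 8 lower (-0.86). MMP15, a membrane metalloproteinase, had medians of 7.62 to 1.11 TPM, whereas MMP17 rose (14.8 to 41.3 TPM). COL1A1 ranged from 1969 to 3476 TPM in MYC-OFF (median 2679) and from 329 to 1280.1 TPM in MYC-ON (median 789) without overlap. ANXA5, which binds phosphatidylserine, had medians of 485 to 217 TPM. PCDHB8 had medians of 27.2 to 12.8 TPM, and members of this cluster are similar enough for reads to be split between them. CASP, IL, ADAM and TMED completed the lowest 8, with 9 of 10, 20 of 32, 7 of 10 and 7 of 10 members lower.

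Gene lists of matrix and adhesion moved the same way. Matrix proteases and inhibitors had 3 of 25 higher and 21 lower (median -0.80), complement and coagulation 2 of 21 higher and 16 lower (-0.77), cadherins and catenins 0 of 10 higher and 9 lower (-0.65) and focal adhesion 0 of 24 higher and 21 lower (-0.57). JUP, a desmosomal catenin, ranged from 33 to 47 TPM in MYC-OFF (median 37) and from 9.42 to 15 TPM in MYC-ON (median 12.1). TNS1, a tensin that ties integrins to actin, had medians of 3.49 to 0.503 TPM, and C1R of the complement system 16 to 2.98 TPM. Neither these nor JUP overlapped between groups. Contractile actin and SRF genes had 2 of 21 higher and 14 lower, with MYLK, the myosin light chain kinase, at medians of 168 to 46.8 TPM. YAP and TEAD targets had 1 of 23 higher and 20 lower, with CCN2 at 199.8 to 75.2 TPM and TEAD4, a TEAD factor itself, higher (32.6 to 68.3 TPM).

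Of 26 genes of the TGF-beta, activin and BMP pathways, 20 were lower and 2 higher (median -0.54). TGFBI, a matrix protein induced by TGF-beta, ranged from 1072 to 1512 TPM in MYC-OFF (median 1302) and from 156 to 739 TPM in MYC-ON (median 360.2), and BMP1, a procollagen protease, from 113 to 220.1 TPM in MYC-OFF (median 185) and from 29.9 to 86.4 TPM in MYC-ON (median 56). Both were without overlap. In the Wnt pathway 17 of 27 were lower and 8 higher. WNT5A, a non-canonical ligand, ranged from 65.8 to 128 TPM in MYC-OFF (median 104) and from 9.43 to 45.9 TPM in MYC-ON (median 19.1) without overlap, and DKK3, a secreted Dickkopf protein, had medians of 159 to 49.7 TPM. Axon guidance had 5 of 25 higher and 14 lower (median -0.24, and -0.098 in series 1 alone), and SEMA3C and its receptor NRP1 had medians of 218 to 50.2 and 167 to 56.2 TPM. Notch genes went otherwise, with 8 of 14 higher and 4 lower. Of these, HES4, a transcriptional repressor, rose from 18.4 to 60.3 TPM and HES1 from 0.813 to 4.18 TPM, while LFNG, which modifies Notch receptors, fell from 16.3 to 6.78 TPM.

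Genes of immune display and inflammation were mostly lower. Interferon-stimulated genes had 1 of 25 higher and 21 lower (median -0.73), MHC class I presentation 2 of 16 higher and 13 lower (-0.69) and cytokines and chemokines 3 of 15 higher and 12 lower (-0.60). The last median was -0.94 in series 1 alone and -0.29 in series 2 alone. IFIT3, an interferon-induced antiviral protein, ranged from 10.4 to 17.7 TPM in MYC-OFF (median 15.1) and from 1.94 to 5.85 TPM in MYC-ON (median 4.25), and IRF9, the DNA-binding part of the interferon-activated complex ISGF3, from 8.61 to 16.8 TPM in MYC-OFF (median 11.2) and from 2.04 to 6.85 TPM in MYC-ON (median 4.14). TAPBP, which loads peptides on MHC class I, had medians of 173 to 77.8 TPM and its relative TAPBPL 12.1 to 3.92 TPM. Groups did not overlap for any of these 4. PSMB10, an immunoproteasome subunit in the same list, rose (72.3 to 139 TPM). CCL2, which recruits monocytes, ranged from 59.2 to 309 TPM in MYC-OFF (median 179) and from 15.3 to 52.5 TPM in MYC-ON (median 33.2), also without overlap.

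The unfolded protein response list had 0 of 21 genes higher and 20 lower (median -0.48). CALR, the lectin chaperone calreticulin, ranged from 1066 to 1401 TPM in MYC-OFF (median 1155) and from 380.4 to 635 TPM in MYC-ON (median 570.1), with no overlap. DNAJB9 and CRELD2 of the endoplasmic reticulum had medians of 29.8 to 12.5 and 51 to 24.5 TPM. Glutathione and NRF2 genes were split, with 12 of 20 higher and 5 lower. GPX4, which guards membranes from lipid peroxides, ranged from 395 to 587 TPM in MYC-OFF (median 506) and from 144 to 236 TPM in MYC-ON (median 189) without overlap, while SRXN1 and GCLC, NRF2 targets, rose (56.7 to 122 and 19.5 to 41.6 TPM). Autophagy had 5 of 29 higher and 18 lower, with MAP1LC3A and GABARAPL1, which coat autophagosomes, at medians of 23.1 to 8.04 and 124 to 52.3 TPM.

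Within the MYC and MAX network, 4 of 12 genes were higher and 4 lower. MXI1, a MAX partner that represses, ranged from 12.8 to 23.5 TPM in MYC-OFF (median 18) and from 39.1 to 75.9 TPM in MYC-ON (median 51), and MXD3, of the same family, from 7.02 to 15.1 TPM in MYC-OFF (median 10.2) and from 1.74 to 4.76 TPM in MYC-ON (median 3.06). Neither overlapped, so members of 1 family moved in opposite directions. MNT, another repressing partner, rose by 0.60 on the log2 scale (17.8 to 28.8 TPM). Of the genes that mark adrenergic neuroblastoma, 2 of 7 tested were higher and 3 lower (median 0.0044). GATA2 ranged from 13 to 21.4 TPM in MYC-OFF (median 16.1) and from 30.6 to 52.1 TPM in MYC-ON (median 40.3) without overlap and HAND2 had medians of 15.3 to 27.1 TPM. KLF7, CHGB and GAP43 were lower, with medians of 11.2 to 8.90, 1.97 to 0.924 and 1.76 to 1.02 TPM. The call of KLF7 was lost in series 1 alone and over CT52 to CT76. Of the mesenchymal markers 15 of 20 tested were lower and 3 higher (median -0.42). LGALS1 (galectin-1) ranged from 3962 to 5369 TPM in MYC-OFF (median 4474) and from 1009.7 to 2054 TPM in MYC-ON (median 1303) and FN1 (fibronectin) from 77.6 to 509.6 TPM in MYC-OFF (median 364) and from 35 to 97.4 TPM in MYC-ON (median 69.3), whereas PRRX1, a mesenchymal transcription factor, rose from 0.501 to 3.73 TPM.

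Because dexamethasone and 4OHT are steroid receptor ligands, their target lists were read too. Of 15 glucocorticoid receptor targets tested 6 were higher and 7 lower (median 0.04). These are 40% and 46.7%, against 33% and 38.9% of all genes. Among them TSC22D3 (GILZ) was up (30.3 to 90.4 TPM). CRISPLD2 and MT2A, a metallothionein, were down (24.6 to 6.24 and 5918 to 1943 TPM). Estrogen receptor targets had 3 of 12 higher and 7 lower (25% and 58.3%). ESR1 is itself 1 of these 12 (medians of 984 to 658 TPM), and its reads are not separated from those of the fusion gene. CA12, a carbonic anhydrase in that list, ranged from 1.22 to 2.42 TPM in MYC-OFF (median 2.03) and from 5.09 to 10.2 TPM in MYC-ON (median 8.29) without overlap. EPOP, a partner of Polycomb complex PRC2, ranged from 3.67 to 6.75 TPM in MYC-OFF (median 5.50) and from 13.4 to 46 TPM in MYC-ON (median 34.9), while the PRC2 list as a whole had 5 of 14 higher and 4 lower.

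Among non-coding entries 1 stood far ahead. FAM222A-AS1 (chr12:109734166-109773508, GRCh38), a long non-coding RNA, was listed at a median of 0 TPM in MYC-OFF (highest 0.411) and ranged from 18.7 to 40.2 TPM in MYC-ON. The log2(TPM + 1) difference was 4.72 (SE 0.054), 4.74 in series 1 and 4.70 in series 2. FAM222A, the gene it is named as antisense to, ranged from 0.721 to 1.70 TPM in MYC-OFF and from 0.0922 to 1.20 TPM in MYC-ON. Whether the counting used strand is not given in the sources used here. The next rises, with 28 of 28 pairs, were AC012640.1 (0.886 to 7.08 TPM), AL355607.2 (1.53 to 9.82 TPM), LINC01164 (0.663 to 5.69 TPM) and AC027031.2 (5.86 to 24.5 TPM), the last absent from Gencode 44 and so of no stated class. The leading falls were WNT5A-AS1 (13.7 to 2.24 TPM), AL355916.1 (31.7 to 6.53 TPM), AC124067.2 (36.9 to 9.21 TPM), GASAL1 (6.53 to 1.41 TPM) and the pseudogene FBXL21P (47.4 to 15.5 TPM). WNT5A-AS1 lies within WNT5A on the other strand, and WNT5A was lower as well. Of 1458 long non-coding RNAs tested 526 were higher and 441 lower (median 0.04), and of 12138 protein-coding genes 3954 and 4963 (median -0.05).

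Chromosome medians ran from -0.09 on chromosome 17 to 0.10 on chromosome 13. By 4 bins of transcript GC content, genes lower 1.5-fold numbered 236, 320, 419 and 656 from lowest to highest GC, out of 3582 or 3583 in each, and genes higher 1.5-fold 323, 364, 347 and 311. Falls were thus more frequent among GC-rich transcripts. The GC slope of the libraries moved with this, with means of 0.0123 in MYC-OFF and 0.00702 in MYC-ON in series 1 and of 0.00877 and -0.0001 in series 2. With the GC slope of each library removed, 4678 genes were higher and 5658 lower, and 1334 and 1574 at 1.5-fold. Those calls were not counted by GC bin, so the part of the slope in the trend over bins was not tested. Across 14330 genes Spearman's rho of the difference with GC was -0.11, -0.08 in series 1 and -0.13 in series 2, a description across genes that share libraries. In 4 bins of transcript length, the genes called higher numbered 1284, 1284, 1138 and 1017 from shortest to longest, and those called lower 1154, 1352, 1487 and 1578.

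The effect of N-MYC changed with time for a large part of genes. A term for the change of the log2 difference per 24 h passed at an adjusted p of at most 0.05 (limma) for 6291 genes (43.8%), upward for 2332 (16.2%) and downward for 3959 (27.6%). After median-of-ratios rescaling of the libraries the split was 3011 upward and 3350 downward, so the split depends on the scaling. Without the 6 pairs of replicate 2 from CT52 to CT72 it was 2097 and 3551. Of 873 genes lower 1.5-fold with a passed term, 724 moved away from 0 and 149 toward it, and of 642 higher ones 386 moved away and 256 toward it. Genes chosen in series 1 and read in series 2 had medians of -0.77 at CT24 and -1.08 at CT76 where lower, and of 0.84 and 0.95 where higher. Read the other way, from series 2 into series 1, these medians were -0.68 and -0.97 where lower and 0.83 and 0.87 where higher.

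Cell cycle lists changed sign over the time course. All 27 DNA replication genes and all 22 mitosis genes tested passed the time term downward, against 27.6% of all genes, and did so after rescaling too. In series 1 alone 26 and 15 passed downward, in series 2 alone 24 and 12, with 0 upward in either. The median of the DNA replication list was 0.38 over CT24 to CT32 and -0.76 over CT68 to CT76, and that of mitosis 0.30 and -0.56. From the early to the late times, the replication genes moved by a median of 0.21 in MYC-OFF and -0.89 in MYC-ON. MCM6, a subunit of the replicative helicase, averaged 41.6 and 47.3 TPM in MYC-OFF and 81.2 and 45.4 TPM in MYC-ON at the early and late times. PLK1, a kinase of mitotic entry, averaged 76.9 and 83.9 TPM in MYC-OFF and 124 and 62.8 TPM in MYC-ON. E2F1, which drives S phase genes, averaged 19.9 and 24.4 TPM in MYC-OFF and 20.3 and 6.32 TPM in MYC-ON. The log2 difference thus went from 0.95 to -0.07 for MCM6 and from 0.68 to -0.42 for PLK1, and in MYC-OFF the mean of neither dropped. MCM5 and KIF11 fell over all times, by 0.74 and 0.51 on the log2 scale, and each time term was downward (-0.58 and -0.58 per 24 h).

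The spliceosome had medians of 0.51 early and 0.06 late with 20 of 30 genes downward, the proteasome 0.24 and -0.0016 with 18 of 33 downward, and nuclear transport 0.42 and 0.12 with 15 of 29 downward. In series 1 alone 12, 14 and 16 of these passed downward, and in series 2 alone 15, 8 and 6. Translation factors were at 0.41 and 0.41, with 8 upward and 8 downward terms (4 and 6 in series 1 alone, 8 and 5 in series 2 alone). HSPA1A, an inducible HSP70, had the largest downward term, -1.47 per 24 h (adjusted p = 6.97e-07, limma), and averaged 53.2 and 59.8 TPM in MYC-OFF and 47.4 and 7.19 TPM in MYC-ON. HSPA1B, its near-identical copy, had -1.16, and reads of the 2 may be split between them. Their summed TPM had medians of 130.3 in MYC-OFF and 92.6 in MYC-ON. DPT (dermatopontin), a matrix protein, changed from 0.94 to -1.60, AC025257.1 from -0.01 to -2.10 and COL5A1 from -2.07 to -4.25, these being log2 differences at early and late times.

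The ATF4 stress response rose late. Its list had 12 of 18 upward terms and 1 downward, against 16.2% upward over all genes, and its median rose from -0.05 early to 0.78 late. ASNS (asparagine synthetase) averaged 35.2 and 17.9 TPM in MYC-OFF and 58.8 and 173 TPM in MYC-ON at early and late times, a time term of 1.22 per 24 h (adjusted p = 3.34e-07, limma). The series differed in course as well as in size. In series 1, ASNS in MYC-ON went from 62.6 TPM at CT24 to 119.7 TPM at CT44 and back to 72.5 TPM at CT76. In series 2 it went from 136 TPM at CT44 to 289 TPM at CT72. In MYC-OFF it fell from CT24 to CT76 in both, from 41.2 to 12.3 TPM in series 1 and from 51.8 to 15.5 TPM in series 2. From CT68 to CT76, MYC-ON lay between 72.5 and 76.1 TPM in series 1 and between 249.6 and 289 TPM in series 2. The late MYC-ON mean of 173 TPM thus pools unlike series. Of the 3 late MYC-ON libraries of series 2, 2 had negative GC slopes. Upward terms of the list numbered 7 of 18 in series 1 alone, 13 in series 2 alone and 9 without the 6 pairs. GDF15, a stress-induced cytokine, averaged 387 and 441 TPM in MYC-OFF and 514 and 1907 TPM in MYC-ON, and TRIB3, a pseudokinase that restrains ATF4 signalling, 36.3 and 27.7 TPM in MYC-OFF and 58.9 and 115 TPM in MYC-ON. p53 targets had 11 of 20 upward terms (8 in series 1 alone and 6 in series 2 alone) and autophagy 11 of 29 (7 and 10), with a late median of -0.21 for autophagy. The largest upward terms among genes that passed were those of LINC02154 (2.00), TGFB2-OT1 (1.63), SPANXC (1.34), AC008581.2 (1.32) and AC008738.7 (1.23 per 24 h). LINC02154 went from -0.51 early to 3.16 late, a change of sign. SPANXC is 1 of 11 near-identical SPANX entries, and TGFB2-OT1 overlaps TGFB2. AC008738.7 lies within LRP3 on the same strand. Reads may be shared in each case. TGFB2-OT1, AC008581.2 and AC008738.7 were listed at 0 TPM in some libraries of each group.

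**Figure D4:**
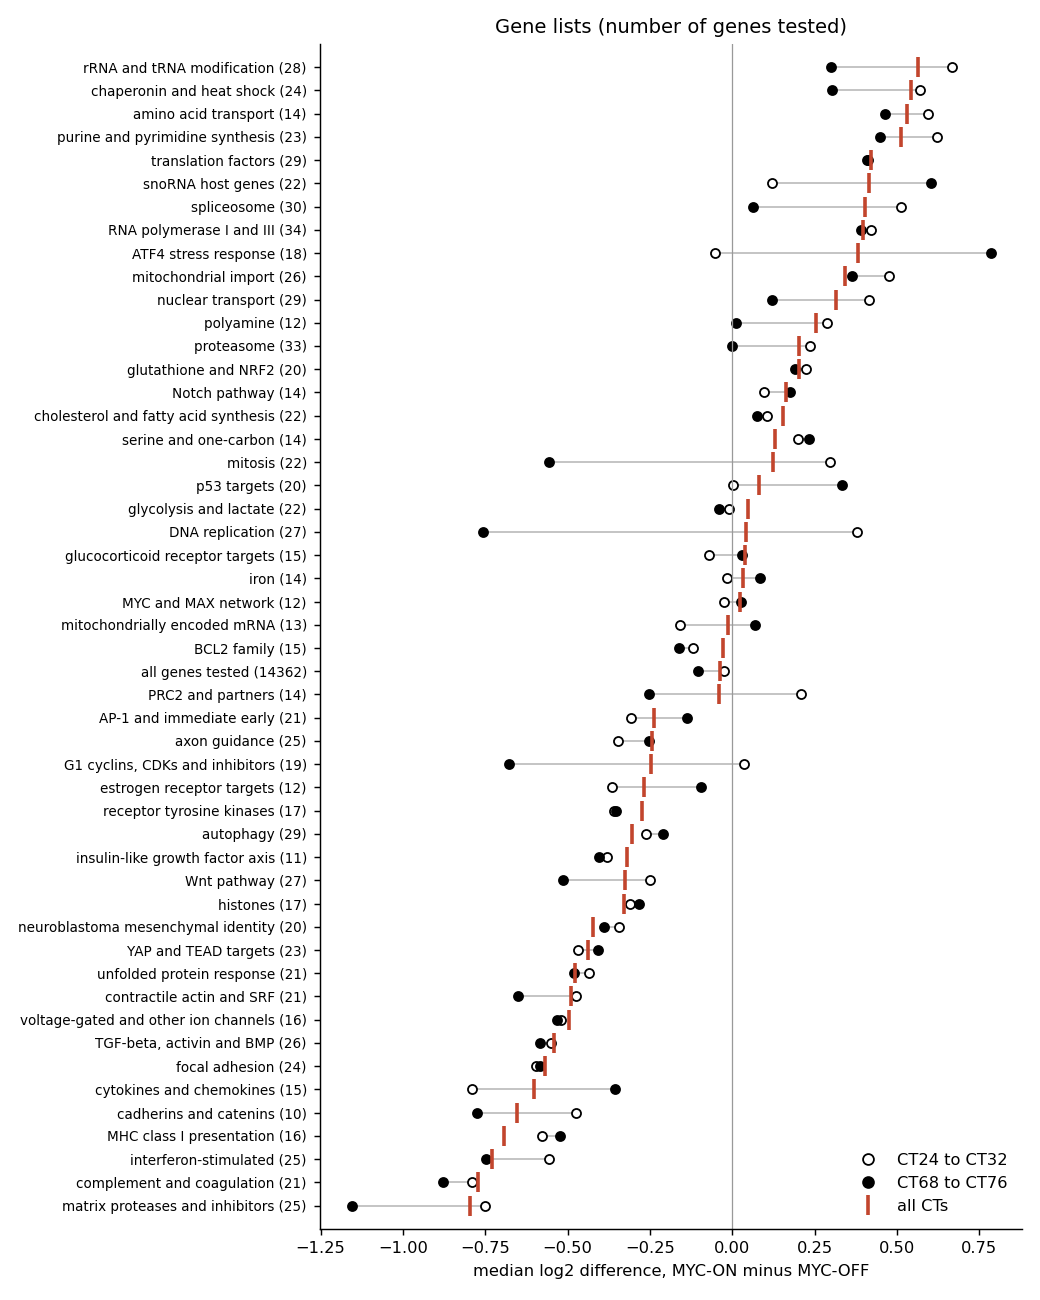
Median log2 difference of MYC-ON minus MYC-OFF for each gene list with at least 10 genes tested, over CT24 to CT32 (open circles), CT68 to CT76 (filled circles) and all CTs (red bars), with the number of genes in brackets. DNA replication and mitosis cross from above to below 0, the ATF4 stress response goes from -0.05 to 0.78, and matrix proteases and inhibitors lie lowest late and over all CTs, though not early.

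**Figure D5:**
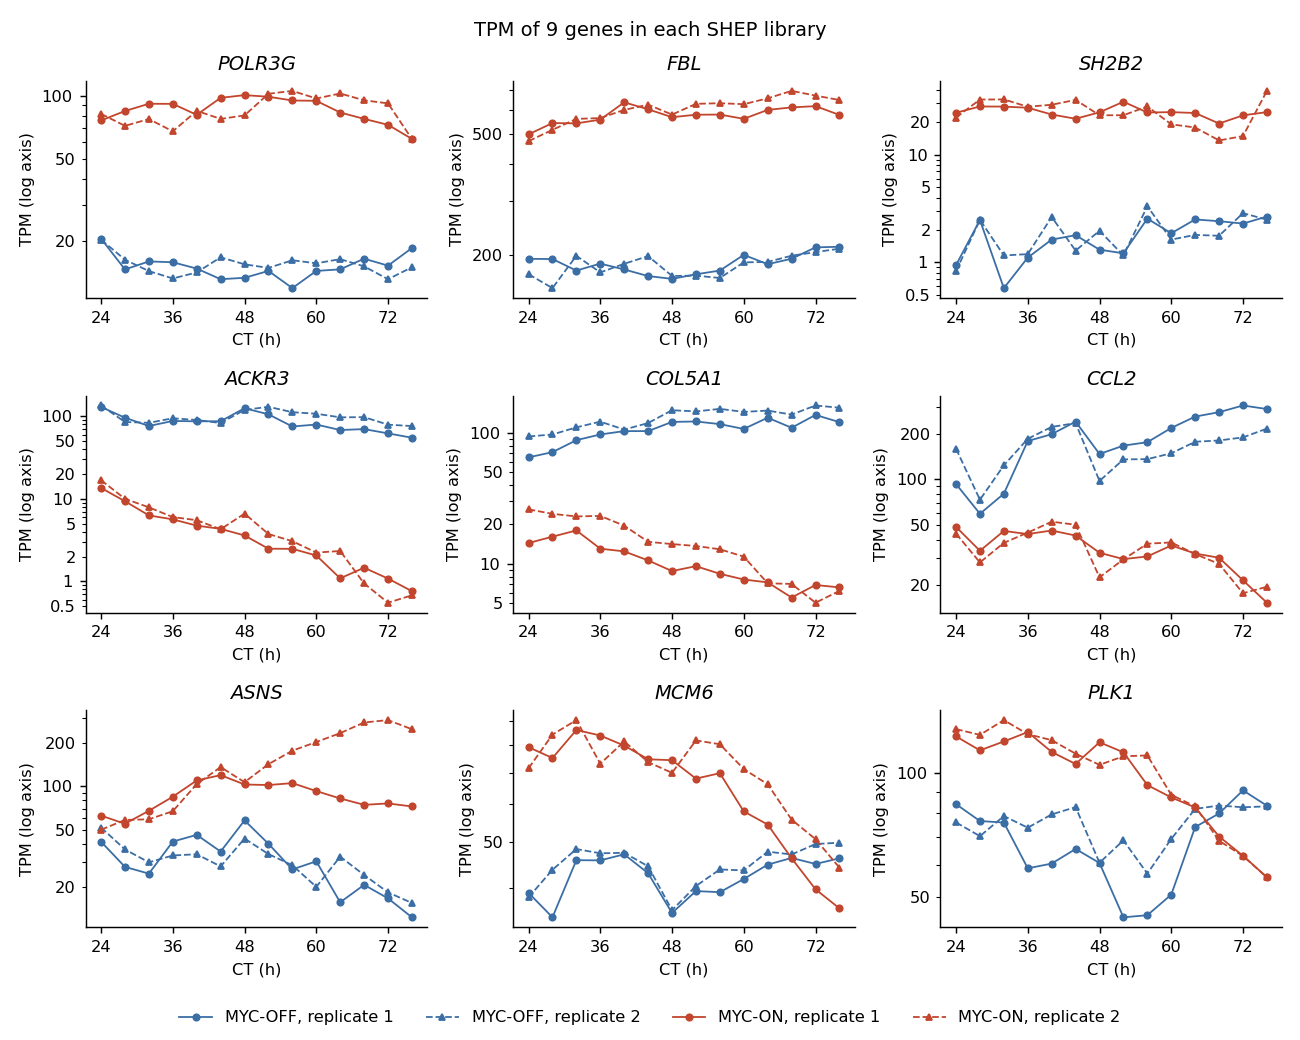
TPM on a log axis against CT in hours for 9 genes in all 56 libraries, MYC-OFF in blue and MYC-ON in red, with circles and solid lines for replicate 1 and triangles and broken lines for replicate 2. POLR3G, FBL and SH2B2 stay apart at each CT, ACKR3 and COL5A1 fall over time in MYC-ON, and the groups of MCM6 and PLK1 start apart with MYC-ON higher and lose that order.

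The series differed in effect by at least 0.66 on the log2 scale for few genes. At an adjusted p of at most 0.05 (limma), whatever the size, 297 of 14362 genes passed. The difference between series passed at an adjusted p of at most 0.05 and 0.66 on the log2 scale for 31 genes (0.216%), 16 with a higher and 15 with a lower value in series 2. Without the 6 pairs of replicate 2 from CT52 to CT72, 6 genes passed. Among genes whose effect was lower in series 2 were RN7SL2, the RNA of the signal recognition particle (-0.48 in series 1 and -2.10 in series 2), RPL36A, a ribosomal protein (0.15 and -1.07), and S100A2, a calcium-binding protein (1.91 and 0.79). RN7SL2 is made by RNA polymerase III, whereas the libraries are of polyadenylated RNA. Without the 6 pairs its series term and that of RPL36A did not pass. TMEM265 had -2.46 and -0.34. Of 15 cytokines and chemokines tested 4 passed, CXCL8, CXCL2, IL6 and CXCL1, which are named here after their values were seen. CXCL8, a neutrophil attractant, differed by -1.99 in series 1 and -0.76 in series 2, and IL6 by -1.92 and -1.08, so each was lower in both series. Without the 6 pairs none of the 4 passed.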

How the data were processed

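Polyadenylated RNA from SHEP N-MYC-ER cells was sequenced as paired ends. The authors mapped reads to Gencode 35 transcripts (GRCh38) with Salmon 1.3.0, collapsed them to genes with Tximport and deposited TPM, which scale each library to 1000000 and correct for transcript length. TPM keep no read depth, so depth and counting error per library are unknown here. The deposited table held 60237 genes in 83 columns, all mapped to samples by name, and 0 columns were left unmapped.

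Groups came from the labels. Genes with a mean of at least 1 TPM over the 56 SHEP libraries were tested on log2(TPM + 1) with limma 3.58.1 in R 4.3.3, with CT as a factor and condition, and Benjamini-Hochberg adjustment over 14362 genes. Fold changes on this scale understate changes of low genes. A condition by CT slope and a condition by series term were fitted apart, both with the replicate series as a further term. Fits were tested on simulated data with known changes. Named genes were the 12 largest rises and falls among protein-coding genes at 1.5-fold in 28 of 28 pairs with a mean of at least 5 TPM in the higher group, 5 non-coding genes each way under the same conditions, MYCN and MYC, the largest called members of each list and family, and the 5 largest time and series terms each way. Gene classes, GC content and coordinates came from Gencode 44 on the same build, which held 99.7% of entries. The genes, lists and tests were chosen with earlier results of these data known. No 2 libraries were alike, with identical values for at most 0.473% of tested genes. Alternatives changed the pseudocount, filter, scaling, prior, GC slope, block, replicate series and times.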

Additional observations from a re-analysis of the deposited data

Results flagged for a closer look

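These are tested differences of the N-MYC effect between times or between series, with groups of 28 libraries being too large for a test of single outlying libraries. Each value is the fitted change of the log2 difference per 24 h or the log2 difference in series 2 minus that in series 1, with adjusted p from limma.

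The effect became more negative with time for ACKR3 (-1.14 per 24 h), COL5A1 (-1.18), MMP24 (-1.06, a membrane metalloproteinase), CCL2 (-1.04), LFNG (-1.09), HSPA1A (-1.47), HSPA1B (-1.16), DPT (-1.39) and AC025257.1 (-1.19). It became more positive for ASNS (1.22 per 24 h), AC012640.1 (1.03), LINC02154 (2.00), TGFB2-OT1 (1.63), SPANXC (1.34), AC008581.2 (1.32) and AC008738.7 (1.23). For AC025257.1 and TGFB2-OT1 the time term did not pass in series 1 alone. AC025257.1, TGFB2-OT1, AC008581.2 and AC008738.7 were listed at 0 TPM in some libraries of each group.

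The effect was lower in series 2 for CHMP1B-AS1 (-2.26, adjusted p = 0.0347), RN7SL2 (-1.62), RPL36A (-1.22), AC115223.1 (-1.17) and S100A2 (-1.12). It was higher in series 2 for AL137129.1 (2.99), RNF185-AS1 (2.38), AC112491.1 (2.14), TMEM265 (2.12), RN7SK (1.34), CXCL8 (1.23), CXCL2 (0.95), IL6 (0.84) and CXCL1 (0.67). Without the 6 pairs of replicate 2 from CT52 to CT72, of these 14 genes S100A2 and TMEM265 still passed. AL137129.1, RNF185-AS1, CHMP1B-AS1 and TMEM265 were listed at 0 TPM in some libraries of each group.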

How the results depend on the processing

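The counts of higher and lower genes stayed within 1.5 times under each alternative tried, 3443 to 5690 higher and 4091 to 6464 lower, as did the counts of time terms. With the mean of each series and condition as the replicate (2 against 2), 3443 genes were higher and 4091 lower. Median-of-ratios rescaling gave 5166 and 5138, and 1486 and 1458 at 1.5-fold. The replicate number matched libraries of the same time for counts of pairs and sign-flip tests. It was not a term in the main fit but was one in the fits of time and series terms. Deviations of same-numbered libraries correlated by more than 0.1 at 11 of 14 times, with r from 0.04 to 0.30 over the 14. With a replicate block in the main fit, 4765 genes were higher, and 4754 by pairs. Lower genes numbered 5605 and 5591. At 1.5-fold, 1349 and 1348 were higher and 1633 and 1632 lower. A block by pairs in the time fit gave 2346 upward and 3900 downward terms. Series terms were fewer with a mean of at least 5 TPM (10 higher), with no filter (9 lower) and without the 6 pairs of replicate 2 from CT52 to CT72, chosen after seeing the data (3 higher, 3 lower), and more with a pseudocount of 0.1 (23 lower). List medians moved by more than their spread over pairs for the unfolded protein response (-0.48 to -0.61 over the fits without 1 replicate series), and at a pseudocount of 0.1 for interferon-stimulated genes (-0.86) and ion channels (-0.62). Of 178 named genes, 156 kept their direction and call in every alternative. Signs turned at CT24 to CT48 for DPT (0.48), LINC02154 (-0.28), SPANXC (-0.47) and AC008581.2 (-0.093), between the fits without 1 replicate series for RPL36A (-1.07 to 0.15), AC115223.1 (-1.004 to 0.17), AL137129.1 (-0.33 to 2.66), RNF185-AS1 (-0.96 to 1.42) and RN7SK (-0.72 to 0.62), and without the 6 pairs for RPL36A (0.0016). The cause was not tested. Depth per library is unknown, so the precision of low TPM is too.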

Other observations

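GAGE2E, a cancer-testis antigen gene on chromosome X chosen here after its values were seen, had the largest fitted difference of any gene (log2 difference -5.94, SE 0.78). It ranged from 0 to 1336 TPM in MYC-OFF (median 283) and from 0 to 1021 TPM in MYC-ON (median 0) and was lower in 21 of 28 pairs. Its 11 GAGE entries in the table are near-identical copies, and their summed TPM ranged from 7338 to 9759 in MYC-OFF (median 8629) and from 7374 to 10554 in MYC-ON (median 9066), a log2 difference of 0.11. The change of the single entry was thus absent from the sum of the copies.

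Histone genes with measurable polyadenylated RNA were lower in 11 of 17 cases and higher in 1 (median -0.33, and -0.18 in series 1 alone), and H1-2, a linker histone, had medians of 50.7 to 31.9 TPM. Of the iron genes, STEAP3, a reductase of the transferrin cycle, ranged from 108 to 182 TPM in MYC-OFF (median 138) and from 14.7 to 72.2 TPM in MYC-ON (median 33.2) without overlap, while FTL and FTH1, the light and heavy ferritin chains, moved in opposite directions (2523 to 4671 and 7056 to 4264 TPM). In the BCL2 family, BMF and BAD, which promote cell death, fell from 4.25 to 0.479 and from 78.2 to 37.2 TPM, with no overlap for either. Of 15 members 6 were lower and 1 higher (40% and 6.67%, against 38.9% and 33% of all genes). The family median was -0.03, near the -0.04 of all genes, so the family as a whole was not lower than genes at large. Of 19 tested G1 cyclins, CDKs and CDK inhibitors, 5 were higher and 11 lower (26.3% and 57.9%, against 33% and 38.9% of all genes). CCND2, a G1 cyclin near the floor in MYC-OFF, rose from 0.0539 to 1.80 TPM. CDKN1B, a CDK inhibitor, fell from 16.7 to 10.0 TPM, and neither overlapped. CCND1, a more abundant G1 cyclin, had medians of 118 to 88.1 TPM.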
